A study of Drosophila melanogaster with 2 samples.

Results

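The genes described here encode the structural proteins of the insect cuticle. They are the protein-coding genes of the BDGP6 annotation of *Drosophila melanogaster* whose names start with Cpr, Lcp, Pcp, Acp65A, Ccp84A, Edg or Twdl, and they number 123 of 13968 protein-coding genes. By prefix they are 71 Cpr, 15 Lcp, 25 Twdl, 7 Ccp84A and 3 Edg genes, with 1 Pcp and 1 Acp65A gene. The name rule also takes in Cpr itself, which RefSeq names as cytochrome P450 reductase, an enzyme and not a cuticle protein, so that 122 cuticle protein genes remain without it. The data are chromatin immunoprecipitation sequencing (ChIP-seq) peak lists for the protein CG10631, immunoprecipitated with an anti-GFP antibody from whole white prepupae of a transgenic line. That line stably carries CG10631 with an enhanced green fluorescent protein (eGFP) fused to its C-terminus. There was 1 group, of 2 biological replicates numbered 2 and 3, with no other stage, genotype or treatment, so the comparisons are between sets of genes or stretches of genome within the same lists. Whole animals were used, so the lists cannot tell the epidermis, which makes cuticle, from other tissues, and the promoter that drives the fusion gene is not given in the labels.

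The cuticle is a layered matrix of chitin fibres and proteins secreted by the epidermis, and it is renewed at each moult under the control of the steroid hormone ecdysone. Most Cpr, Lcp, Pcp, Acp and Ccp proteins carry the Rebers and Riddiford consensus, a conserved stretch that binds chitin. Tweedle (Twdl) proteins form a separate cuticle protein family that was named after dominant mutations giving a short, squat body. At the white prepupa stage the last larval cuticle is turned into the hard pupal case, and the epidermis then detaches from it and goes on to make the pupal cuticle. Many of these genes arose by local duplication and still stand side by side.

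Members with gaps of at most 20 kb between neighbours were joined into clusters, and clusters of at least 3 members were kept. This gave 15 clusters with 88 members over 243 kb, while 35 members stood outside clusters. A gene is called bound below when a peak summit, the position of highest signal, lay within 500 bp of any of its start sites. The IDR list holds 8399 peaks, labelled by the authors as the optimal set after an irreproducible discovery rate (IDR) threshold. Of these, 8319 overlapped a region of both replicate lists, 51 of replicate 2 alone and 29 of replicate 3 alone. The merged list holds 30000 regions, IDR peaks among them, labelled by the authors as peaks and background. All 8399 IDR peaks were found in the merged list, where they are its strongest 28.0%. The signal of a region is the peak caller's own score, given by the authors.

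The sequences below show the places on which the account turns, in the dm6 reference, 5′ to 3′, with 4 promoter motifs in capitals wherever they occurred. The motifs, on either strand, are the TATA box TATAAA, the DREF element TATCGATA, CAGTGC and GAGAG. The first set holds the 101 bp centred on the summit, on the plus strand, of the strongest IDR peak in clusters and edges whose nearest protein-coding start site is that of a cuticle gene (chr3L:16361336-16361436, upstream of Cpr72Ea), of the strongest one inside any cluster (chr3L:16364348-16364448, upstream of Cpr72Eb), of both IDR peaks at the promoters of cuticle genes (chr3L:16362327-16362427 at Cpr72Ea and chrX:13543272-13543372 at Cpr12A), and of the only IDR peak in the cluster with the most members (chr3L:6141207-6141307, between Cpr65Av and Cpr65Aw).
Cpr72Ea, 1217 bp upstream: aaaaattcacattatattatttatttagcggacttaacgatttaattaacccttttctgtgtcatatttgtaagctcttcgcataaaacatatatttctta
Cpr72Eb, 501 bp upstream: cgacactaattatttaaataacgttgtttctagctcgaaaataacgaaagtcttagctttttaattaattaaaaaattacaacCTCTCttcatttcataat
Cpr72Ea, 226 bp upstream: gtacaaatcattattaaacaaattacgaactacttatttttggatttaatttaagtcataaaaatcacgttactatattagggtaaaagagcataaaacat
Cpr12A, 321 bp upstream: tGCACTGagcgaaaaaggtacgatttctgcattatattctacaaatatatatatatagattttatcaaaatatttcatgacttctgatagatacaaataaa
Between Cpr65Av and Cpr65Aw: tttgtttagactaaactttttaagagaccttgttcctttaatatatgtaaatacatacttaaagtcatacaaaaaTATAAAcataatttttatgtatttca

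The second set holds the 100 bp that end at the base before a start site, on the coding strand. Cpr72Ea (chr3L:16362503-16362602) and Cpr12A (chrX:13543543-13543642) are the bound cuticle genes. Edg84A (chr3R:6684345-6684444), Ccp84Aa (chr3R:6703984-6704083), Edg78E (chr3L:21297804-21297903, minus strand), TwdlM (chr3R:26619018-26619117) and TwdlD (chr3R:26639925-26640024) are unbound members with the prefixes Edg, Ccp84A and Twdl, and Lcp65Ab1 (chr3L:6149448-6149547) and Lcp65Ab2 (chr3L:6146574-6146673) are a near-identical pair. Except for Edg78E, all are on the plus strand.
Cpr72Ea: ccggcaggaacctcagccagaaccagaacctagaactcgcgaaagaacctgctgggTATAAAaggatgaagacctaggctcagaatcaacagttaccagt
Cpr12A: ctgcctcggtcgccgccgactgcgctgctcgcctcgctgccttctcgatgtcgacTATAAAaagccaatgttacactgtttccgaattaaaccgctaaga
Edg84A: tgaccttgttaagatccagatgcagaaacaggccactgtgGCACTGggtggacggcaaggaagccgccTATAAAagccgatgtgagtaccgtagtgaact
Ccp84Aa: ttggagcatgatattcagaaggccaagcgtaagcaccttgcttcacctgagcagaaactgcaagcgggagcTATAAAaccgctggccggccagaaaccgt
Edg78E: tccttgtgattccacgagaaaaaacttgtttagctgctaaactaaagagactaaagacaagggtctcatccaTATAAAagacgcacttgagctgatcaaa
TwdlM: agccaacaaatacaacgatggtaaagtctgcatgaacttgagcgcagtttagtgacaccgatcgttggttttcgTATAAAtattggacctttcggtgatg
TwdlD: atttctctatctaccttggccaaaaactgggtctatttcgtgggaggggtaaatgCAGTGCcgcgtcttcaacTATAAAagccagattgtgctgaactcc
Lcp65Ab1: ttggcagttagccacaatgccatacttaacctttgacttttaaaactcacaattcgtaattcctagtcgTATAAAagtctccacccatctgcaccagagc
Lcp65Ab2: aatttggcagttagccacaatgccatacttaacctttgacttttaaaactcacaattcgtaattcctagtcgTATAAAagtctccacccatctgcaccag

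All 9 of these promoters hold a TATA box in the 50 bp before the start site, as do 81 of 123 members. It begins at base 57 of the 100 in the bound Cpr72Ea and at base 56 in the bound Cpr12A. In the unbound members shown it begins closer to the start site, at bases 69 to 75. Those members were picked, and the position is not particular to the bound genes. Among unbound members not shown, the box begins at base 56 in Cpr66Cb and at base 57 in Cpr92A and Cpr5C. The summits at Cpr72Ea and Cpr12A lie further upstream, outside these 100 bp.

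Few promoters of cuticle protein genes were bound. In the IDR list 3 of 123 members had a summit within 500 bp of a start site, 2.44% (95% Wilson interval 0.833 to 6.93%), against 19.4% of all protein-coding genes. The enzyme gene Cpr is 1 of the 3. In the merged list, which reaches down to much weaker regions and by its label holds background too, 22 members had a summit. That is 17.9% (12.1 to 25.6%), against 34.3% of all genes. The replicate lists, each of 30000 regions, gave 22 members (17.9%) in replicate 2, where 35.0% of all genes had a summit, and 18 members (14.6%) in replicate 3, where 35.2% of all genes had one. The members' share was thus below that of all genes in the IDR list, in the merged list and in each replicate. These intervals cover counting error only, and the genes of a cluster are neighbours and not independent draws.

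The 3 genes called bound carried weak peaks. The summit at Cpr12A, a cuticle protein gene outside clusters, lay 321 bp upstream in an intergenic region (dm6 X, 13543102 to 13543541), with a signal of 132.5, of 56.1 in replicate 2 and of 69.5 in replicate 3. The summit at Cpr72Ea, the first gene of a cluster of 3, lay 226 bp upstream (3L, 16362157 to 16362596), with a signal of 106.2, of 47.5 in replicate 2 and of 57.6 in replicate 3. The summit at Cpr lay 5 bp from an internal start site, in an intron (2L, 6339600 to 6340039), with a signal of 144.4, of 68.5 and of 77.7. Replicate 3 was the higher in all 3 cases. The peaks ranked 6301, 7925 and 5743 by signal, outside the 4199 strongest of the list. Over all IDR peaks the median signal was 190.1 and the lowest 100.1. The nearest gene outside the 500 bp limit was Cpr72Eb, whose summit stood at 501 bp with a signal of 476.5 and would have been the strongest of all.

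Beyond the promoter window the difference from all genes in the IDR list changed little up to 5000 bp and was gone at 20000 bp. The median distance from a member's start site to the nearest IDR summit was 9600 bp (quartiles 3998 and 17005 bp), against 6193 bp (1267 and 14858 bp) over the 13945 protein-coding genes on the chromosome arms. Within 2000 bp there were 17 members (13.8%, 8.81 to 21.0%), against 29.4% of all genes. Within 5000 bp the shares were 28.5% and 45.0%, within 10000 bp they were 51.2% and 63.3%, and within 20000 bp they were 82.9% and 82.2%. For the merged list the median was 2888 bp for members and 1770 bp for all genes. The summits of the merged list that lay in members' promoters were upstream of the start site for 17 of 22 genes (77.3%), close to the 79.1% over all genes.

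**Figure D1:**
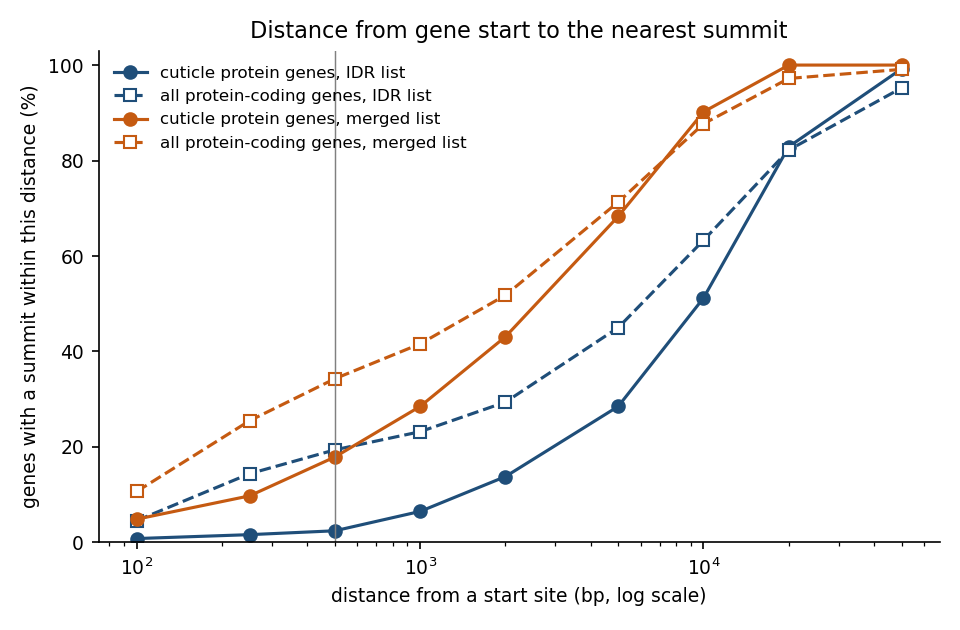
Share of genes, in percent, with a summit within a given distance of a start site (log scale, bp), for cuticle protein genes (filled circles, n = 123) and all protein-coding genes (open squares), in the IDR list (blue) and the merged list (orange). The grey line marks 500 bp, where members stood at 2.44% and 17.9% and all genes at 19.4% and 34.3%, and the curves of the IDR list met at 20000 bp.

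Some features that bear on how often a gene is called differed between the members and other genes. A gene with several start sites can be called through any of them, and 111 members (90.2%) had a single start site, against 73.5% of all genes. Among genes with 1 start site, 2 of 111 members (1.80%, 0.496 to 6.33%) were bound in the IDR list against 14.1% of all such genes, and 17 (15.3%, 9.79 to 23.2%) against 26.7% in the merged list, so the members' shares were also below those of other genes with a single start site. Duplicated genes are harder to map reads to. At least 90% of the 31-base words of the promoter occurred once in the genome for 108 members (87.8%), against 95.7% of all genes. Of the 15 members below that level, Lcp65Ab1 and Lcp65Ab2 had 9.58% unique words each, Cpr65Ax1 had 23.6% and Cpr65Ax2 27.9%. None of the 4 members below 50% had a summit in its promoter in the IDR or the merged list, but 4 genes are too few to give a share. Lcp65Ag2, at 61.5%, had a merged summit 206 bp from its start site. Members' promoters were richer in GC, with a median of 46.1% against 42.6%. The part of mapping and of GC content in the low share was not tested.

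The members' promoters stood apart in their TATA boxes. TATAAA occurred on the coding strand in the 50 bp before the start site in 81 of 123 members (65.9%), against 10.6% of all genes. For this and the other promoter motifs only the most upstream start site of each gene was examined, whereas a gene is called bound through any start site. In the members it began at a median position of -29 bp (quartiles -32 and -27 bp), where a TATA box that directs transcription usually lies. By family it was found in 42 of 71 Cpr genes, 12 of 15 Lcp genes, 6 of 7 Ccp84A genes, 16 of 25 Twdl genes and all 3 Edg genes. Among the 1476 genes of the genome with such a box, 8.06% were bound in the IDR list and 21.5% had a summit of the merged list, and for the 81 members among them the shares were 2.47% (0.680 to 8.56%, 2 genes) and 16.0% (9.63 to 25.5%, 13 genes). These differences were not tested. In the 300 bp from 250 bp before to 50 bp after the start site, TATCGATA, known from housekeeping promoters, was found in 1 member (0.813%) against 9.36% of all genes. CAGTGC was found in 15.4% of members and 15% of all genes, and GAGAG in 30.1% and 29.7%. A match is a description of the letters and not evidence of a site in use.

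**Figure D2:**
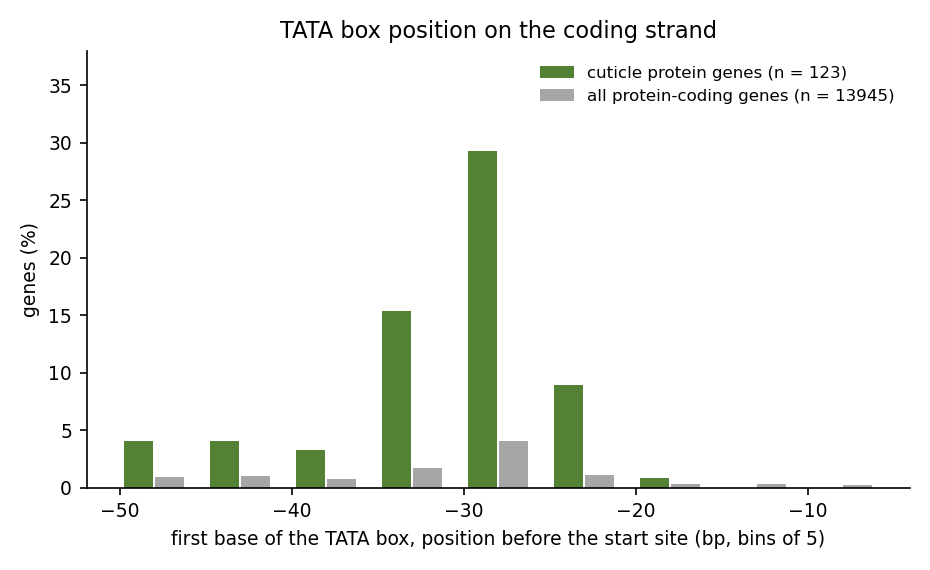
Share of genes, in percent, whose TATA box begins in each 5 bp bin before the start site on the coding strand, for cuticle protein genes (green, n = 123) and all protein-coding genes on the arms (grey, n = 13945). Each gene is counted at its most upstream start site. Both groups peak in the bin from -30 to -26 bp, which holds 29.3% of the cuticle protein genes and 4.07% of all genes.

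The cuticle genes with an IDR summit near but outside the promoter window were all of the Cpr prefix. There were 14 members whose nearest IDR summit lay more than 500 and at most 2000 bp away, among them Cpr49Ah at 640 bp, Cpr62Ba at 800 bp, Cpr47Ec at 920 bp and Cpr65Ea at 973 bp. From 500 to 2000 bp the share with a summit rose from 2.44% to 13.8% for members and from 19.4% to 29.4% for all genes. The band thus held a similar share of members and of all genes. Outside clusters, Cpr51A had an IDR peak in its intron, 1434 bp downstream of its start, with a signal of 218.8, of 99.8 in replicate 2 and of 117.9 in replicate 3. That summit also lay 253 bp upstream of CG30197, a gene of unknown function, so the peak is in that gene's promoter. Cpr73D and Cpr97Ea also had an IDR peak in an intron, with signals of 134.7 and 126.1, and Cpr97Eb had one 1272 bp upstream, with a signal of 144.1. Replicate 3 was higher than replicate 2 at Cpr73D (70.9 against 66.0) and lower at Cpr97Ea (52.3 against 72.3) and Cpr97Eb (63.3 against 81.8).

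Merged-list regions at members' promoters were weak. Outside the IDR list their highest −log10 q-value was 0.947, at Cpr49Ah, and at Pcp it was 0.131. Weak binding and background entries cannot be told apart among them. After the 3 IDR peaks the strongest were at Cpr49Ah (67.8), Cpr51A (62.4), Cpr97Eb (59.0) and Acp65Aa, an adult cuticle protein gene (52.3), against a median of 54.7 over all merged regions. Lower values were found at Cpr97Ea (51.8), Cpr73D (49.4), the larval cuticle gene Lcp65Ad (48.6), the ecdysone-dependent gene Edg91 (46.3) and Cpr35B (42.5). The regions at these 12 genes overlapped a region of both replicate lists, for example 24.5 in replicate 2 and 21.2 in replicate 3 at Lcp65Ad, with a summit 13 bp upstream, and 33.9 and 17.9 at Edg91. At Cpr49Ah the replicate regions were the ones that also overlap the IDR peak 640 bp upstream. The other 10 genes had regions of 30.3 to 40.6, at the low end of the list, among them Pcp, the pupal cuticle gene nested in an intron of Gart (31.8, found in replicate 3 at 24.3 and not in replicate 2). Of members with a summit in replicate 2, 54.5% of 22 had one in replicate 3, against 83.4% over all genes, and of those in replicate 3, 66.7% of 18 had one in replicate 2, against 82.8%. A total of 12 members had a summit in both replicates, and 10 of these in the merged list too.

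By family, the counts are to be read against 19.4% of all genes in the IDR list and 34.3% in the merged list, and no difference between families was tested. None of the 25 Twdl genes and none of the 7 Ccp84A genes had a summit within 500 bp in the IDR list, the merged list or either replicate list. The nearest merged summit to a Twdl gene was 640 bp away (TwdlE) and the nearest IDR summit was 3588 bp away (TwdlF), with a median of 19898 bp to an IDR summit, against 6867 bp for the Cpr genes, 8291 bp for the Lcp genes and 17970 bp for the Ccp84A genes. Among 71 Cpr genes, 16 had a merged summit, as had 3 of 15 Lcp genes, and Edg91 of the 3 Edg genes. Edg78E, a prepupal cuticle gene, had a summit in replicate 2, 14 bp from its start site, and none within 500 bp in the merged list. Members in clusters were bound in 1 of 88 cases in the IDR list and 12 in the merged list (13.6%), and members outside clusters in 2 of 35 and in 10 (28.6%), Cpr included. The share of members outside clusters in the merged list was thus nearer to the 34.3% of all genes.

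IDR peaks were sparse in the clusters, and their density just beside the clusters was also below that of the arms. Inside the 243 kb of clusters 8 IDR summits were found, 3.29 per 100 kb (95% exact Poisson interval 1.42 to 6.48), against 6.50 per 100 kb over the arms. In the 10 kb on each side of every cluster 12 were found, 4.0 per 100 kb, for which no interval was computed. The density was 7.00 per 100 kb at 10 to 20 kb from a cluster, 8.44 at 20 to 50 kb and 7.73 at 50 to 100 kb, all above the arms' value. The merged list showed a smaller difference, with 48 summits inside (19.7 per 100 kb, 14.6 to 26.2), 51 in the edges (17.0), 21.3 at 10 to 20 kb and 24.3 at 20 to 50 kb, against 23.2 over the arms. Replicate 2 had 53 summits inside and replicate 3 had 37. The arms' value lay just above the interval of the IDR list and within that of the merged list.

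**Figure D3:**
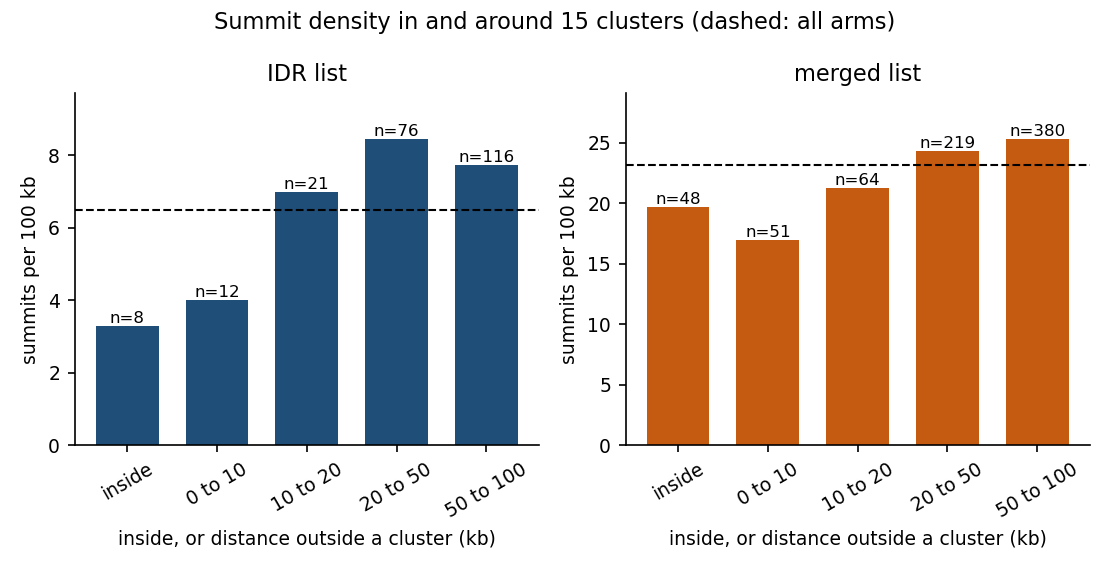
Summits per 100 kb inside the 15 clusters and at increasing distance outside them (kb), for the IDR list (left) and the merged list (right), with the number of summits above each bar and the value over all arms as a dashed line. The IDR bars inside (3.29) and within 10 kb (4.0) lie below the dashed line at 6.50, and those from 10 kb outward lie above it.

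Regions within the clusters were weak and seldom at cuticle promoters. Of the 48 merged regions inside clusters 8 (16.7%) were IDR peaks and of the 51 in the edges 12 (23.5%), against 28.0% of the whole list. Their median signal was 44.6 inside and 50.4 in the edges, against 54.7 over all merged regions, and the IDR peaks had medians of 148 inside and 182 in the edges, against 190.1. Inside, 11 regions lay in a member's promoter, 5 in the promoter of another protein-coding gene and 32 in neither, and none of the 8 IDR peaks lay in a promoter. Of the IDR peaks inside, 7 were intergenic and 1 was in an intron. Both replicates held an overlapping region for 29 of the 48 (60.4%), replicate 2 alone for 14, replicate 3 alone for 3 and neither for 2, whereas both held one for 73.9% of all merged regions and for 42 of the 51 in the edges (82.4%). Over all 30000 merged regions replicate 2 alone held one for 3379, replicate 3 alone for 3762 and neither for 694. Of the 14 found in replicate 2 alone, 7 lay in the cluster from Lcp65Ag3 to Cpr65Az.

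The clusters differed among themselves. An IDR summit lay inside 6 of the 15, and 5 had no merged region inside. The strongest peak inside any cluster was in the Cpr72E cluster (Cpr72Ea, Cpr72Eb and Cpr72Ec, 4.74 kb on 3L), 501 bp upstream of Cpr72Eb (16364178 to 16364617), with a signal of 476.5, of 222.0 in replicate 2 and of 254.3 in replicate 3. A still stronger peak (16361202 to 16361533) stood 1217 bp upstream of Cpr72Ea, with 665.1, 322.4 and 339.8. They ranked 1119 and 573 in the list and their replicates lay close together. With the promoter peak of Cpr72Ea, 3 IDR peaks stood upstream of the first pair of genes of this cluster, and the next genes on either side, ringer and CG4842, were not bound.

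The Cpr49A cluster of 8 genes (38.5 kb on 2R) and the Lcp65A cluster of 18 genes (31.2 kb on 3L) held 15 merged regions each, most of them weak. In the Cpr49A cluster 2 were IDR peaks, 640 bp upstream of Cpr49Ah (153.2, with 75.7 in replicate 2 and 75.9 in replicate 3) and 1359 bp upstream of Cpr49Ac (126.2, with 52.5 and 68.4). In the Lcp65A cluster the single IDR peak lay between Cpr65Av and Cpr65Aw, with a signal of 109.8, and was unequal, at 67.4 in replicate 2 and 22.2 in replicate 3. That cluster held 15 regions of replicate 2 and 7 of replicate 3, and 7 of its 15 merged regions were found in replicate 2 alone. It had the lowest share of unique 31-base words, 83.1%. A merged summit was found at 7 of its 18 members and at 3 of 8 in the Cpr49A cluster, to be read against 34.3% of all genes. The region at Lcp65Ag2, 1 of the 7, had only 13.7% unique words. Without the Lcp65A cluster, 33 merged regions stayed inside the clusters (15.6 per 100 kb) and 7 IDR peaks (3.30 per 100 kb). A merged summit was then found at 5 of 70 clustered members, against the same 34.3% of all genes.

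The other clusters with an IDR peak inside belonged to Cpr genes. The Cpr62B cluster had 1, in an intron of Cpr62Ba and 800 bp upstream of one of its start sites, with a signal of 261.1, of 138.1 in replicate 2 and of 123.7 in replicate 3. The Cpr65E cluster had 2, at 142.3 (79.9 and 59.3) upstream of Cpr65Ec and at 111.4 (48.1 and 60.9) upstream of Cpr65Ea. The Cpr47E cluster had 1, 920 bp downstream of the start of Cpr47Ec, at 166.7 (85.1 and 82.8). Which replicate was the higher varied from peak to peak.

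**Figure D4:**
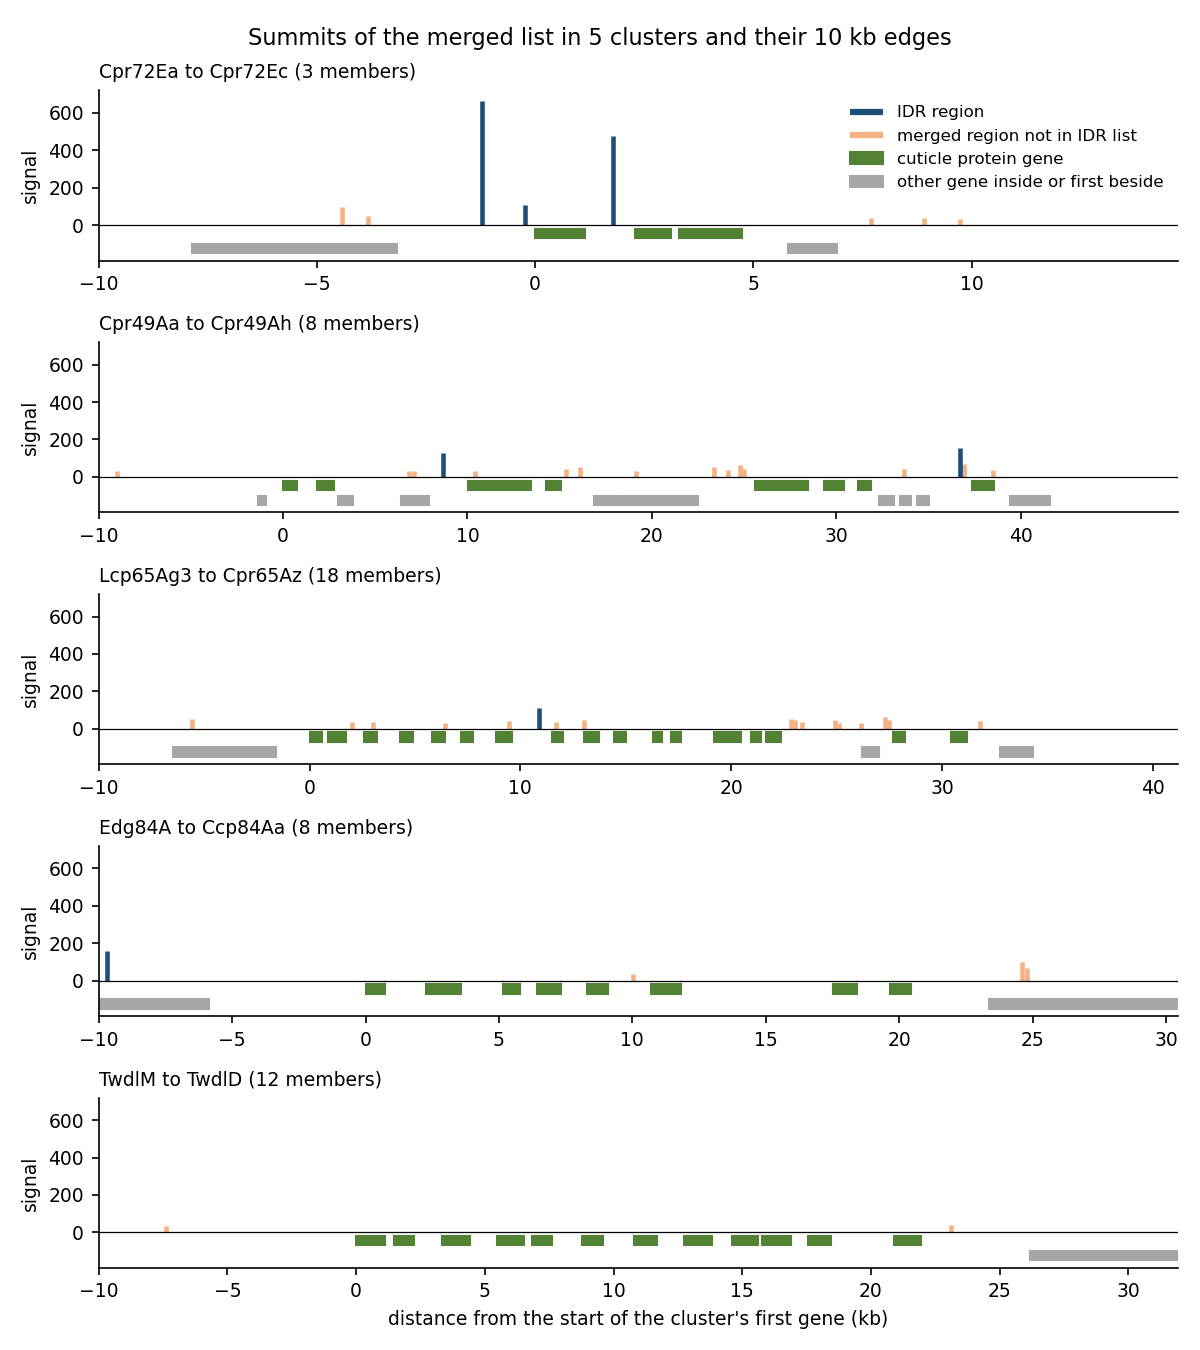
Merged-list summits (vertical lines, height is the signal in the peak caller's units) in 5 clusters and the 10 kb on either side, against distance in kb from the start of the cluster's first gene, with cuticle protein genes in green and other genes inside or first beside the cluster in grey. Blue lines are IDR peaks and orange lines are regions outside the IDR list. The peaks of 665.1 and 476.5 stand at the Cpr72E cluster, the Lcp65A cluster has 1 IDR peak of 109.8, and the cluster from TwdlM to TwdlD has no region inside.

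The Tweedle clusters were the emptiest. The cluster of 12 genes from TwdlM to TwdlD (21.9 kb on 3R) and the clusters from TwdlF to TwdlV and from TwdlX to Twdlalpha had no region inside in the IDR, merged, replicate 2 or replicate 3 list, and the only other cluster of which this held was that of Cpr64Aa to Cpr64Ad. The cluster from TwdlM to TwdlD lay in a stretch of 106 kb with no IDR summit, and the cluster from TwdlF to TwdlV in one of 152 kb. The median spacing between neighbouring IDR summits was 4.62 kb, 0.786% of the spacings were as long as 152 kb, and such long spacings held 16.0% of the bases. Spacings at least as long as that around TwdlM to TwdlD held 24.5% of the bases. Of the 12 genes from TwdlM to TwdlD, TwdlD itself, the gene whose mutations gave the family its name, had its nearest merged summit 2209 bp away, and TwdlO, in the middle, at 14994 bp. In this cluster 92.4% of 31-base words were unique, and in the other Tweedle clusters 100%. The Lcp1 to Lcp4 cluster of larval cuticle genes (2R) lay in an IDR-free stretch of 105 kb, and spacings at least that long held 24.7% of the bases. Its 8.38 kb held 3 weak merged regions, 35.8 per 100 kb, which is above the 23.2 over the arms. The cluster from Edg84A to Ccp84Aa lies in the Antennapedia complex between the homeotic genes lab and pb. It held 1 merged region, found in replicate 2 alone, and the IDR peak in its edge, in an intron of lab, had a signal of 157.7, of 74.4 in replicate 2 and of 85.9 in replicate 3.

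The edge peaks lay at cuticle genes, at other genes and between genes. The strongest was at the promoter of CG11309, a gene of unknown function, 74 bp from its start site and 4004 bp from Cpr78Cc, with a signal of 1254, of 597.2 in replicate 2 and of 661.2 in replicate 3, rank 116. Beside the TwdlX cluster a peak of 382.9 (183.7 and 200.4) lay in an intron of goe, whose gene overlaps the cluster, and 2 more had 211.1 and 206.2, the last 47 bp from the start of goe. The peak beside the cluster from TwdlF to TwdlV had 121.4 and was unequal, at 20.6 in replicate 2 and 57.7 in replicate 3. It stood 174 bp from the start of TwdlU, a Tweedle locus annotated as a pseudogene, and 286 bp from that of CG34305. Beside the Cpr76B cluster an intergenic peak of 209.8 (104.8 in replicate 2 and 103.9 in replicate 3) lay 1571 bp downstream of the start of Cpr76Ba. The next strongest edge peak after that at CG11309 was the one of 665.1 upstream of Cpr72Ea. Of the 12 edge peaks 1 was in a member's promoter, that of Cpr72Ea, 4 were in promoters of other protein-coding genes, and 7 were in neither. The 2 edge peaks near Cpr67Fb, at 156.3 and 149.7, are overlapping entries and share a region in replicate 3.

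**Figure D5:**
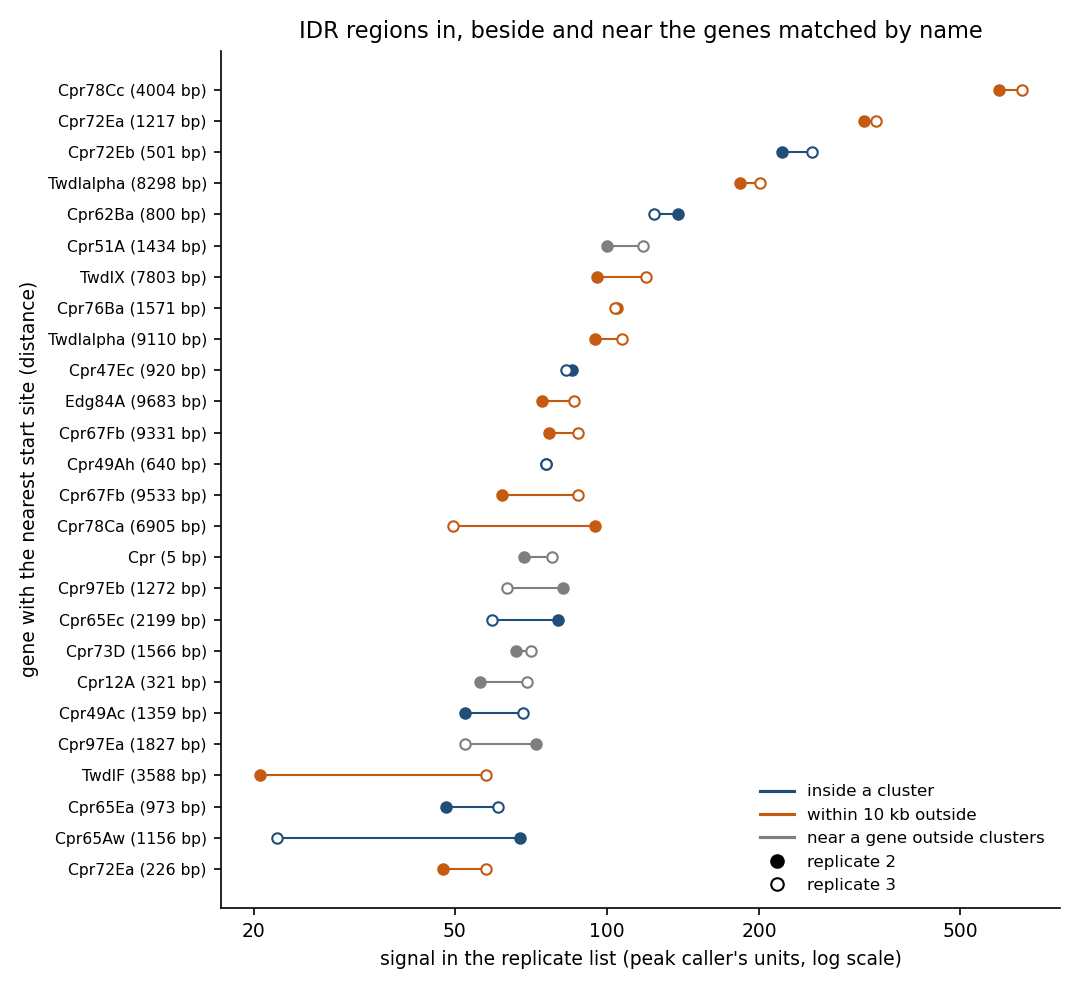
Signal in the replicate 2 list (filled) and the replicate 3 list (open), on a log scale, for each IDR peak inside a cluster (blue), within 10 kb outside (orange) or near a gene outside clusters (grey), named by the gene with the nearest start site and its distance. Replicates lie close together for the strong peaks and far apart at the peaks near TwdlF (20.6 and 57.7) and Cpr65Aw (67.4 and 22.2).

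Other genes in and beside the clusters were bound in a few cases. Of 16 other protein-coding genes that overlap the clusters 1 was bound, goe (6.25%, 1.11 to 28.3%), through a start site in the edge and not inside the cluster, and of the 30 genes that stand first on either side of a cluster 5 were (16.7%, 7.34 to 33.6%), namely GV1 at 111, pzg at 147, CG11309 at 1254, CG34305 at 121 and the integrin gene if at 106. Both intervals contain the 19.4% of all genes, and the first also contains the members' 2.44%. The summit counted for pzg lay 204 bp from its start site, and nearer, at 67 bp, to that of CG12974, in whose 5′ UTR it stood. Motifs were also counted in the 201 bp around the summits. CAGTGC was found at 7 of the 20 IDR summits in clusters and edges (35.0%), against 18.1% of all IDR summits, TATAAA at 10 (50%) against 40.3%, GAGAG at 5 (25%) against 19.8%, and TATCGATA at none, against 1.71%.

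Genes that act on the cuticle in other ways were counted in short lists, to be read against the 19.4% of all genes bound in the IDR list, and differences between lists were not tested. Of 14 genes of chitin synthesis and deacetylation 2 were bound (14.3%), mmy, which makes the building block of chitin, at 186 (118 in replicate 2 and 93.9 in replicate 3) and Gfat2, an enzyme of the same pathway, at 215 (117 and 46.2). Of 16 chitinases and imaginal disc growth factors 4 were bound (25%), with Cht11 at 494, Cht7 at 455, Idgf2 at 409 and Cht8 at 184. None of 11 chitin-binding cuticle proteins of other families was bound in the IDR list, and 4 had a summit of the merged list, in which 34.3% of all genes had one. Of 18 genes of tanning and pigment 1 was bound (5.56%), Pu, the gene of GTP cyclohydrolase, at 146.

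A list of apical matrix proteins, most with a zona pellucida domain, which help attach the epidermis to the cuticle, had 4 of 13 bound (30.8%), with tyn at 390.5, qsm at 279, pio at 139 and mas, a serine protease homologue without that domain, at 186. Regulators of cuticle genes and of moulting had 7 of 15 bound (46.7%). They include grh, a regulator of epidermal and cuticle genes, at 637 (321 in replicate 2 and 309.7 in replicate 3), the ecdysone-induced Eip75B at 448 (210.3 and 236), usp, the partner of the ecdysone receptor, at 283 (153 and 135), and crc, a transcription factor needed for pupation, at 199 (94.4 and 104). EcR, Eip74EF and Eip93F were also bound, at 198, 143 and 117, the last with 32.1 in replicate 2 and 81.4 in replicate 3. Both shares lay above the 19.4% of all genes, but the lists are short and the counts small. The 7 bound regulators also have between 2 and 7 start sites each, so that each was searched in more than 1 window.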

How the data were processed

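Chromatin from whole white prepupae expressing CG10631-eGFP was immunoprecipitated with an anti-GFP antibody in 2 biological replicates, numbered 2 and 3 per the labels. The deposited peak lists on dm6 give for each region a signal in the peak caller's units and a −log10 q-value. The merged and IDR lists derive from both replicates and 1 further parent file, per the listings beside the deposited files. The aligner, the peak caller, its thresholds and the read depth are not stated in the labels or listings used here, so the precision that depth gives is unknown. Lists on dm3 were not used. Signals were not scaled between lists and no expression was measured.

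Genes, start sites and sequences came from dm6 with the BDGP6 annotation, release 6.54, in 1-based positions. A gene was called bound with a summit within 500 bp of any start site. Clusters joined members with gaps of up to 20 kb, at least 3 members each, with edges of 10 kb. A region of a merged or IDR list was assigned the region of each replicate list that overlapped it most. Promoter uniqueness was counted in words of 31 bases. Shares have 95% Wilson intervals and densities 95% exact Poisson intervals, which cover counting error only. With 1 group no test between groups was possible. Calculations used Python 3.11.15, numpy 2.4.6, pandas 2.3.3, scipy 1.17.1 and matplotlib 3.10.9, and the counting steps were tested on simulated data.

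The members and gene lists were chosen with earlier results of these data known. The genes named are members with an IDR summit within 500 bp, the 12 members with the strongest merged summit there, the strongest IDR regions of each cluster and its edges with their nearest genes, the first other gene on each side of a cluster, members within 2000 bp of an IDR summit, and bound genes of 6 further lists, up to 4 a list. Names used outside this rule were chosen after their values were seen: EcR, Eip74EF and Eip93F, and genes named for their lack of a summit or their sequence. The alternatives tried were other windows, region overlap, other cluster limits and edges, the 4199 strongest IDR peaks, and each replicate list in place of both.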

Additional observations from a re-analysis of the deposited data

How the results depend on the processing

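Of 46 recomputed values, 33 stayed within 1.5 times the count first given and 13 did not. The count of 3 members bound in the IDR list became 8 within 1000 bp (6.50%), 17 within 2000 bp (13.8%) and 5 with any overlap of the region, and 0 with the 4199 strongest peaks. Over all genes the shares at these settings were 23.2%, 29.4%, 21.1% and 13.1%. The count of 22 in the merged list became 12 within 250 bp (9.76%), 35 within 1000 bp (28.5%) and 53 within 2000 bp (43.1%). The shares of all genes were 25.5%, 41.6% and 51.8%. The 8 IDR peaks inside clusters became 4 in clusters of at least 5 members and 2 with the 4199 strongest peaks. The 12 in the edges became 1 around clusters of at least 5 members, 5 with edges of 5 kb and 33 with edges of 20 kb, and the bound gene among other genes inside clusters became 0 with at least 5 members. These changes follow from windows or lists that are wider or smaller by construction.

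With 1 replicate list in place of both, the ranges were 2 to 4 members bound among the strongest 8399 regions, 18 to 22 over the whole list, 8 to 9 peaks inside clusters, 12 to 13 in the edges, 37 to 53 weak and strong regions inside clusters, and a density of 3.29 to 3.70 per 100 kb. The density inside clusters ran from 2.88 to 3.70 over the other cluster limits and the single replicate lists, below the 6.50 of the arms, and it was not recomputed for the 4199 strongest peaks or for region overlap. Leaving out the Lcp65A cluster, an alternative chosen after seeing the data, gave 7 IDR peaks and 33 merged regions inside. No paired analysis was possible because there is 1 group. The merged list and each replicate list end at 30000 regions, and the depth is unknown. A gene without a region may therefore still hold signal too weak to be listed.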
